A study of Homo sapiens with 40 samples.

Results

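The zinc finger gene cluster at 19q13.12, which includes ZNF850, was examined in A549 cells with and without a disrupted SETDB1 gene. Its 30 member genes were chosen by symbol, as 29 zinc finger genes and the long non-coding RNA gene LINC00665, and all 30 were found among the 62486 genes of the count table. The peaks, compartment bins and domains of a 2 Mb window of chromosome 19, from 36.5 to 38.5 Mb on hg19, were added.

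A549 is an established human lung adenocarcinoma line, and both groups are A549 cells. The control group is labelled as control, and the other group had SETDB1 disrupted with CRISPR/Cas9 (KO); both were grown in the same serum-containing medium. Whether the KO cells are 1 clone, and what the control cells received, is not given in the sources used here. RNA-seq had 3 libraries per genotype, Hi-C had 2 per genotype, and ChIP-seq of CTCF, H3K4me3, H3K27ac, H3K27me3 and H3K9me3 had 2 per genotype and mark, out of 40 samples in all. Nothing in the labels says that libraries came from separate cultures, so p-values measure only the spread between these libraries, which may be technical.

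Most genes of this cluster encode C2H2 zinc finger proteins, many with a KRAB domain. KRAB zinc finger proteins bind DNA through their finger arrays and recruit the corepressor TRIM28, which in turn brings SETDB1, a methyltransferase that places H3K9me3. The clusters of zinc finger genes on chromosome 19 are themselves known to be covered by broad H3K9me3 domains.

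RNA-seq libraries held 18065062 to 48364919 counts. SETDB1 was at 37.5, 39.6 and 38.8 normalised counts (CPM, counts scaled to library size, with TMM factors) in the control libraries and at 23.4, 21.2 and 21.1 CPM in the KO libraries. All KO libraries lay below all control libraries, with a log2 fold change of -0.82 (SE 0.060, edgeR quasi-likelihood adjusted p 1.7e-12). Of the cell type markers, all 5 epithelial genes were detected, at a summed level of 4391 to 4805 CPM in control and 10428 to 11194 CPM in KO libraries. Defining genes of other cell types, CD3E, COL1A2 and DCN, were at 0 counts, as was the alveolar gene SFTPA1. Of the other alveolar type 2 genes, NKX2-1 had 0 pooled control and 5 pooled KO counts, SFTPC 6 and 10, SFTPB 27 and 20, and NAPSA 65 and 129; NAPSA rose by 0.56 on the log2 scale (edgeR adjusted p 0.027). Summed levels of the 5 alveolar genes were 1.15 to 1.66 CPM in control and 1.6 to 1.88 CPM in KO libraries. Summed levels of the 5 leukocyte genes were 0.103 to 0.221 and 0.48 to 0.548 CPM, those of the 5 fibroblast genes 3.23 to 3.36 and 3.97 to 4.4 CPM, and those of the 3 endothelial genes matched 0.276 to 0.412 and 3.97 to 5.28 CPM. The last difference was carried by CDH5. Its part in the results was not tested. In bulk RNA, fewer cells expressing a gene and less RNA per cell cannot be told apart.

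The promoters of the members are shown first, because they share a feature that the choice of genes did not use. RefSeq promoters (GRCh38.p14, 250 bases before to 50 after the first start listed for a gene) were matched for 27 of the 30 members; ZFP14, ZNF571 and ZNF781 had none matched. Among all runs of 8 bases, the one held by the most member promoters, on either strand, was TTCCCAGA. It was present in 12 of 27 member promoters (44.4%), in 2.86% of the 27305 promoters of the table, and in 13.5% of those of 193 other zinc finger genes of chromosome 19. The most shared run of 15 bases, ACTACATTTCCCAGA, contains it. This longer run was present in 6 member promoters (22.2%), those of ZNF260, ZNF850, ZNF568, ZNF420, ZNF569 and ZNF573, against 0.139% of all promoters and 3.63% of the other chromosome 19 zinc finger promoters. These letters resemble the element known to be bound by ZNF143, a promoter-binding zinc finger factor; no binding of ZNF143 was measured here. Both runs were picked as the most shared among these members, so their shares are a description.

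Promoters of 4 members with TTCCCAGA are printed below as the 250 bases before the start, 5′ to 3′ on the strand of the gene, with the run or its reverse complement in capitals. They lie at chr19:36772808-36773057 (minus strand) for ZNF850, chr19:37078183-37078432 (plus strand) for ZNF420, chr19:36528272-36528521 (minus strand) for ZNF260 and chr19:37779587-37779836 (minus strand) for ZNF573, on GRCh38.p14. ZNF420 holds the run 2 times, and ZNF260 holds it on the other strand.
ZNF850: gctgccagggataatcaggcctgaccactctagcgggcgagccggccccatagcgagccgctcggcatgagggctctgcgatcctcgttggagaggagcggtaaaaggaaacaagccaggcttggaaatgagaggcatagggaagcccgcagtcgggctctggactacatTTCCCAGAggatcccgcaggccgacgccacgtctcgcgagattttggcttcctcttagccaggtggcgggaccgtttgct
ZNF420: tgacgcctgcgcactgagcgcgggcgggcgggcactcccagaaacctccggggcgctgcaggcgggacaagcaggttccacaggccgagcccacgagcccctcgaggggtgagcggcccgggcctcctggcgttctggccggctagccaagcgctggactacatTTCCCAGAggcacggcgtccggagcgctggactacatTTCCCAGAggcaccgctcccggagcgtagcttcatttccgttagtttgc
ZNF260: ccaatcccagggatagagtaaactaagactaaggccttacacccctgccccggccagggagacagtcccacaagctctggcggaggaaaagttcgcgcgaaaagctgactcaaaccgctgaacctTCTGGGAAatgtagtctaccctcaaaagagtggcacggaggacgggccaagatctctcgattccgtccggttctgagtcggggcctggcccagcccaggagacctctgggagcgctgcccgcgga
ZNF573: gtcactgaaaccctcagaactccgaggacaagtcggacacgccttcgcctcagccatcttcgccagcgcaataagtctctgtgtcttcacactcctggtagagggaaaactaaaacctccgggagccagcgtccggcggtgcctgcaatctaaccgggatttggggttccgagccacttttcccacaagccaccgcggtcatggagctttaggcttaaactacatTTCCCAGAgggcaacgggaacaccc

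In the 12 promoters the run occurred 13 times, 8 times on the strand of the gene and 5 times on the other strand, with its first base 244 to 12 bases before the start. ZNF790 and ZNF345 hold the same copy, since their listed starts lie 84 bases apart on opposite strands, and so do ZNF461 and ZNF567, whose starts lie 97 bases apart. Other divergent pairs within 1000 bases were ZNF565 and ZNF146, ZNF529 and ZNF382, ZNF829 and ZNF568, and ZNF569 and ZNF570, which makes 6 pairs. None of the 27 member promoters held TATAAA, the TATA box, which 12% of all promoters and 2.07% of those of the other chromosome 19 zinc finger genes held. CCGGAAG, the core bound by ETS factors, was in 8 member promoters (29.6%), against 10.7% of all and 47.2% of the other chromosome 19 zinc finger promoters. GGGCGG, the GC box, was in 29.6% of member promoters, 44.6% of all and 72.5% of the other chromosome 19 zinc finger promoters, and CCAAT in 22.2%, 35.7% and 57.5%. AAGATGGC, the core bound by YY1, was in 3 member promoters (11.1%), in 3.03% of all and in 5.7% of the other chromosome 19 zinc finger promoters. The searches covered both strands of the 300 bases. Member promoters held 12 to 37 CpG dinucleotides with a median of 22, against 20 for the other chromosome 19 zinc finger genes and 14 for all promoters.

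ZNF585A and ZNF585B are close copies that lie side by side, and their promoters were the most alike of 351 member pairs, with 71.9% identity against a median of 47.8%. They are shown with that of ZNF793, whose increase was among the largest and whose promoter lacks the shared run. The first 2 lie at chr19:37172696-37172945 (minus strand) and chr19:37210537-37210786 (minus strand), and that of ZNF793 at chr19:37506689-37506938 (plus strand), on GRCh38.p14; none holds TTCCCAGA, so no base is in capitals.
ZNF585A: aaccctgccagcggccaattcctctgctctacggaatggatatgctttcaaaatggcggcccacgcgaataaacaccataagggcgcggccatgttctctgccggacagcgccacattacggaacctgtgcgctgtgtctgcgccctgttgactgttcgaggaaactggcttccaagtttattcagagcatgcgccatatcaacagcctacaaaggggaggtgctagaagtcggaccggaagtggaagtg
ZNF585B: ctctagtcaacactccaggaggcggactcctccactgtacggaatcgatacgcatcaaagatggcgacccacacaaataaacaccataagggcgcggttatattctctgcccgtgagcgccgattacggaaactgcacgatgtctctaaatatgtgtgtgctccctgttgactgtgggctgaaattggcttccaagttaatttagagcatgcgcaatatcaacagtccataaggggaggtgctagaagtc
ZNF793: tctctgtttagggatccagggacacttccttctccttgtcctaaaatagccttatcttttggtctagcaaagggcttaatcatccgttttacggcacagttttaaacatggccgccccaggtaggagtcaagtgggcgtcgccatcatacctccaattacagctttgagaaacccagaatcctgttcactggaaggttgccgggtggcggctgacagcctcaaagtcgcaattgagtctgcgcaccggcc

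RNA levels of the cluster were higher in KO cells almost throughout. Summed over the 30 members, the libraries held 543, 526.5 and 531 CPM in control and 1393, 1333 and 1356 CPM in KO cells. Of these sums, ZNF146 alone made up 263.8 of a mean of 533.3 CPM in control and 204.3 of 1361 CPM in KO cells. Of the 30 members, 29 passed the filter on low counts and were tested. In edgeR's quasi-likelihood test, with p adjusted over all 17767 genes tested, 28 members rose and 1, ZNF146, fell. Over all genes tested, 62.8% were called, 32.8% higher and 30% lower. At least 2-fold higher were 24 members, against 9.86% of all genes, at least 2-fold lower was none, against 4.85%, and at least 8-fold higher were 12, against 2.96% of all genes. The median log2 fold change of the tested members was 2.72, and 2.78 with members of at most 3 control counts at their count ratio or bound; over all genes it was 0.004. The KO libraries lay above all control libraries for 29 members and below them for 1, where 34.1% and 31.7% of all genes did so.

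**Figure D1:**
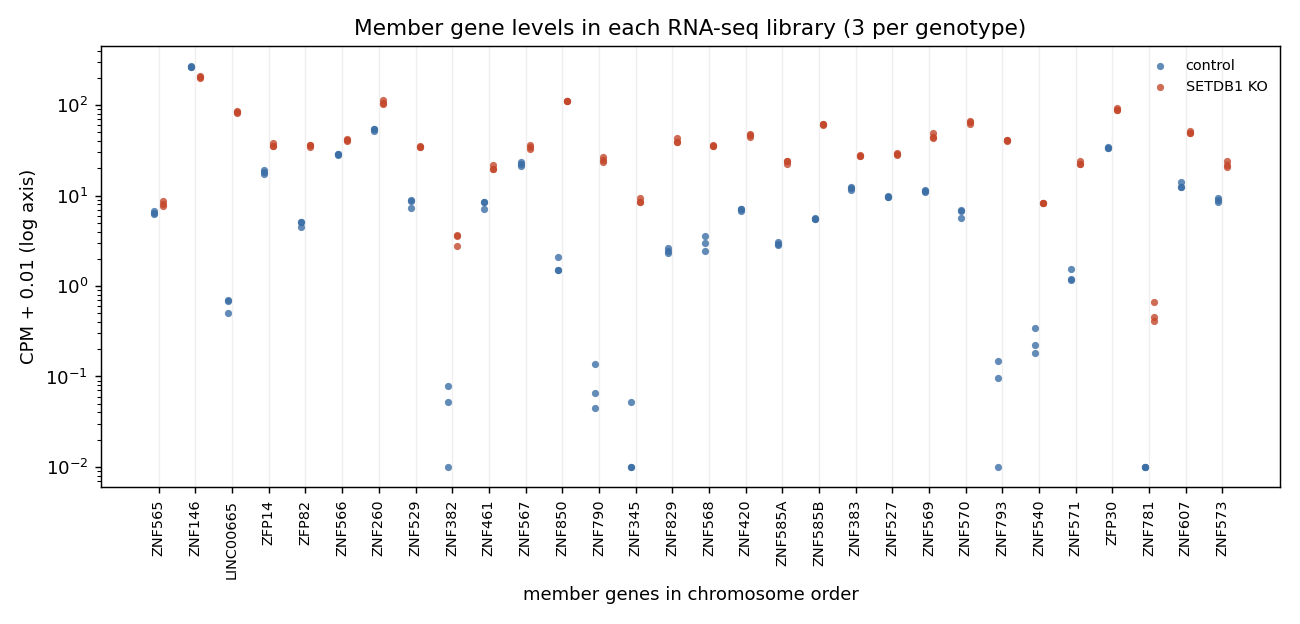
Each point is the level of a member gene in 1 RNA-seq library, in CPM plus 0.01 on a log axis, with genes in chromosome order; blue points are the 3 control and red points the 3 KO libraries. Red points lie above blue points for all members but ZNF146, and the control points of ZNF382, ZNF790, ZNF345, ZNF793 and ZNF781 lie near the bottom of the axis.

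Under 1 CPM in every control library were 7 members: LINC00665, ZNF382, ZNF790, ZNF345, ZNF793, ZNF540 and ZNF781. In KO cells 29 members reached at least 1 CPM in every library, against 23 in control cells. ZNF345 had 1, 0 and 0 counts in the control libraries and 216, 418 and 192 in the KO libraries, or 8.82 ± 0.53 CPM (SD, n = 3). Its ratio of pooled counts, scaled to library size, was 618 (95% exact interval 111 to 24400, counting error only). The fitted log2 fold change of ZNF345 was 8.88 (edgeR adjusted p 1.5e-19, SE 0.31), and it was 10.96 without control replicate 1, where no control count is left and the value depends on the prior count, and 8.26 without control replicate 3. The groups were far apart in every library, while the size of the ratio rests on a single control count.

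ZNF790, which is divergent to ZNF345, was at 0.127, 0.055 and 0.034 CPM in control and at 26.7, 23.7 and 24.5 CPM in KO libraries, from 5 pooled control and 2328 pooled KO counts. The fitted change was 8.37 on the log2 scale (edgeR adjusted p 7.6e-24, SE 0.19), and 9.05 without control replicate 1. Both genes of this divergent pair thus went from a few reads to levels seen in every KO library.

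ZNF793 had 2, 0 and 4 counts in control and 947, 2017 and 902 in KO libraries, or 0.074 ± 0.069 and 40.8 ± 0.58 CPM (SD, n = 3). The fitted change was 8.84 on the log2 scale (edgeR adjusted p 8.6e-26, SE 0.17), and 9.60 without control replicate 3. ZNF382 had 1, 0 and 2 counts in control and 81, 180 and 62 in KO libraries. The pooled ratio of ZNF382 was 80.5 (95% exact interval 27.3 to 392), and its log2 fold change was 6.17 (edgeR adjusted p 1.9e-14, SE 0.37), or 6.89 without control replicate 3. For both genes the lowest KO library stood far above the highest control library.

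LINC00665 is the only long non-coding RNA gene among the members. It was at 0.68, 0.497 and 0.687 CPM in control and at 84.6, 82.5 and 85.7 CPM in KO libraries, a log2 fold change of 7.04 (edgeR adjusted p 1.1e-28, SE 0.098). ZNF540 was at 0.212, 0.331 and 0.172 CPM in control and at 8.16, 8.22 and 8.24 CPM in KO libraries. The fitted change was 5.15 on the log2 scale (edgeR adjusted p 8.1e-19, SE 0.20). In both genes the KO libraries differed little from each other.

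ZNF781 did not pass the filter on low counts. It had 0 counts in all control libraries and 15, 22 and 9 in the KO libraries, so its level was at least 11.5-fold higher in KO cells against a floor of 3 counts over the control group. It was the member with the lowest KO counts, and no KO library reached 1 CPM.

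ZNF850, the gene for which the cluster is named here, was low but present in control cells. Its levels were 1.49, 1.49 and 2.10 CPM in control and 110.9, 110.7 and 111.1 CPM in KO libraries. The log2 fold change was 5.99 (edgeR adjusted p 1.1e-28, SE 0.084). The spread over the KO libraries was 0.18 CPM (SD, n = 3), so the groups were separated by many times their spread.

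ZNF571 was at 1.19, 1.16 and 1.51 CPM in control and at 23.8, 22.5 and 22.5 CPM in KO libraries, a log2 fold change of 4.12 (edgeR adjusted p 3.2e-22, SE 0.11). ZNF829 and ZNF568, a divergent pair whose listed starts lie 41 bases apart, had log2 fold changes of 4.06 and 3.55. ZNF568 encodes a KRAB zinc finger protein whose mouse counterpart is known to repress a placental transcript of Igf2. ZNF570 rose by 3.33 on the log2 scale and its divergent neighbour ZNF569 by 2.02.

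The copies ZNF585A and ZNF585B both rose. ZNF585A was at 3.06, 2.82 and 2.89 CPM in control and 23.8, 22.3 and 24.0 CPM in KO libraries, a log2 fold change of 2.99 (edgeR adjusted p 7.2e-21, SE 0.093). ZNF585B was at 5.61, 5.52 and 5.53 CPM in control and 60.2, 61.7 and 61.0 CPM in KO libraries, a log2 fold change of 3.46 (edgeR adjusted p 2.1e-25, SE 0.068). How the counting treated reads that fit both copies is not given in the sources used here, so the share of each is uncertain.

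Among the other members called at least 2-fold higher, log2 fold changes were 2.84 for ZFP82, 2.72 for ZNF420, 2.06 for ZNF529, 1.94 for ZNF607 and 1.57 for ZNF527. ZNF420 encodes a KRAB protein also known as Apak, a regulator of p53. ZFP30 rose by 1.41, ZNF461 by 1.36, ZNF573 by 1.30, ZNF383 by 1.19 and ZFP14 by 1.01 on the log2 scale. These genes were above 1 CPM in every control library.

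**Figure D2:**
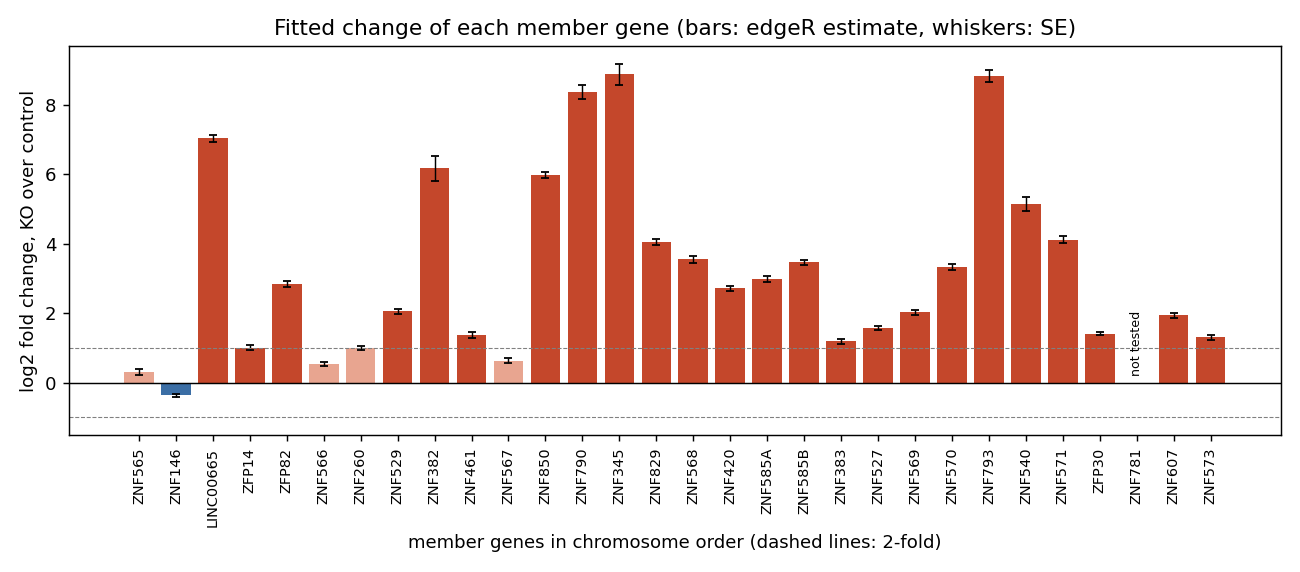
Bars are the fitted log2 fold changes of KO over control for the member genes in chromosome order, with whiskers for the SE; dashed lines mark 2-fold, dark red bars are at least 2-fold higher, pale red bars are higher by less and the blue bar is lower. The tallest bars are ZNF345, ZNF793, ZNF790 and LINC00665, and ZNF146 is the only bar below 0.

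Another 5 tested members changed by less than 2-fold. ZNF260 rose by 1.00 on the log2 scale (fitted fold 1.99), ZNF567 by 0.63, ZNF566 by 0.53 and ZNF565 by 0.31. ZNF146 encodes a protein that consists mainly of zinc fingers and lacks a KRAB domain. It was at 270.1, 261.2 and 260.2 CPM in control and at 205.4, 196.9 and 210.4 CPM in KO libraries, a log2 fold change of -0.37 (edgeR adjusted p 9.7e-09, SE 0.041). It was the only member below all control libraries in all KO libraries, and its divergent neighbour ZNF565, whose listed start lies 22 bases away, was higher.

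Along the chromosome, the median log2 fold change was 1.18 for the first 10 members, 3.50 for the middle 10 and 2.02 for the 9 tested of the last 10. All 3 stretches held both small and large changes, from -0.37 to 7.04, from 0.63 to 8.88 and from 1.30 to 8.84. Members with TTCCCAGA in the promoter had log2 fold changes of 0.53 to 8.88 with a median of 1.69, and the 15 matched members without it had -0.37 to 8.84 with a median of 2.99. The 2 sets overlapped over nearly their whole range.

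Several members overlap each other or other genes, and the strand setting of the counting is not given in the sources used here, although the library kit keeps the strand. Overlapping member pairs were ZNF146 with ZNF565, ZNF382 with ZNF529, ZNF345 with ZNF790 and with ZNF829, ZNF569 with ZNF570, and ZNF540 with ZNF571. Reads of such pairs may not be told apart. Another 11 genes lie between or over the members, a list drawn up after values were seen. Of these, 9 were tested and 9 rose, 8 of them at least 2-fold, against 32.8% and 9.86% of all tested genes. They included the antisense RNAs ZNF790-AS1, from 2 pooled control counts to 1700 KO counts, ZNF793-AS1, from 2 to 415, and ZNF571-AS1, with a log2 fold change of 3.76. LINC01535 went from 2 to 1205 counts, and ZNF875, another KRAB zinc finger gene, rose by 1.03 on the log2 scale.

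Genes just outside the cluster were listed next. Of the 24 genes before it, 20 were tested, 7 rose and 4 fell, and no change reached 2-fold; over all tested genes 32.8% rose and 30% fell, so the share that rose was near that of all genes. The largest changes there were log2 fold changes of -0.81 for ALKBH6, 0.49 for LRFN3, -0.49 for WDR62 and 0.43 for CAPNS1; that of COX7A1 was -0.59 and was not called (edgeR adjusted p 0.067). Of the 17 genes after it, 16 were tested, 9 rose and 2 fell, and SPINT2 (1.57) and MAP4K1 (1.24) rose at least 2-fold. The share that rose there was above the 32.8% of all tested genes, a difference that was not tested. The 2 lower calls, PPP1R14A and EIF3K, became 1 without control replicate 2 or KO replicate 2 and 0 without control replicate 3, KO replicate 1 or KO replicate 3. RYR1, KCNK6 and ACTN4 rose by 0.91, 0.82 and 0.74 on the log2 scale. The median log2 fold change was -0.07 before the cluster, 0.47 after it and 0.09 over both flanks, against 2.72 for the members.

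In the larger cluster of zinc finger genes at 19p12, 33 of 33 genes rose, 28 of them at least 2-fold. Over all tested genes, 32.8% rose and 9.86% rose at least 2-fold. No control count was seen for 17 of the 33, so fitted fold changes of these depend on the prior count. Against a floor of 3 counts over the control group, ZNF486 was at least 3075-fold higher, ZNF208 at least 1020-fold, ZNF676 at least 525-fold, ZNF253 at least 484-fold and ZNF257 at least 433-fold. Over all 221 tested zinc finger genes of chromosome 19 outside 19q13.12, with those of 19p12 included, 201 rose, 3 fell and the median log2 fold change was 1.72. The 887 other tested genes of chromosome 19 had a median of 0.21. Whether the members differed from either cluster or list was not tested.

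The proteins through which KRAB zinc finger proteins repress were also listed. Of 20 genes, 10 rose and 6 fell, SETDB1 included, where 32.8% of all tested genes rose and 30% fell. ATF7IP, a partner that stabilises SETDB1 in the nucleus, rose from 65.2 ± 3.28 to 301.5 ± 12.7 CPM (SD, n = 3; log2 fold change 2.21), and ZNF274, a KRAB protein known to bind 3′ ends of zinc finger genes, from 19.7 ± 0.69 to 84.5 ± 0.80 CPM (2.10). CHD3, a subunit of a chromatin remodelling complex, rose by 0.72 and ATF7IP2 by 0.61 on the log2 scale. The HP1 gene CBX5 rose by 0.45, CBX3 fell by 0.46 and CBX1 by 0.14. The methyltransferase genes SUV39H1, SUV39H2 and EHMT2 fell by 0.30, 0.39 and 0.20, and EHMT1 rose by 0.22. TASOR, PPHLN1 and MORC2, of the HUSH complex and its partner, rose by 0.27, 0.29 and 0.25, and CHD4 by 0.19. TRIM28, the corepressor itself, was at 599 ± 39.8 and 575 ± 26.8 CPM (log2 fold change -0.06, edgeR adjusted p 0.30) and was not called; MPHOSPH8 and SUMO2 were not called either.

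Peak lists gave positions only, 1 list per mark and genotype, so values from them have no replicate error. Peaks with a partner, an overlapping peak in the other genotype, were counted for this window and not over the whole lists. Whether their share is particular to the window was not tested. H3K9me3, the mark placed by SETDB1, was nearly absent from the window in the KO list. The control list had 24 peaks over 1613 kb, 80.6% of the window, and the KO list had 4 peaks over 16.6 kb, 0.829%. The widest control peak spanned 245922 bases, chr19:37293298-37539219. The next widest spanned 206073, 193712 and 168717 bases. All 4 KO peaks lay between positions 38310552 and 38384082, at the far end of the domain, and overlapped 2 control peaks. The other 22 control peaks, over 73.7% of the window, had no KO partner. At 19p12 (a 4.7 Mb window) coverage was 72.4% in control and 2.87% in KO lists, and on the rest of chromosome 19 it was 30.4% and 8.46%. Over all chromosomes it went the other way, 11.3% and 20.5%, with 102976 and 53949 peaks.

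**Figure D3:**
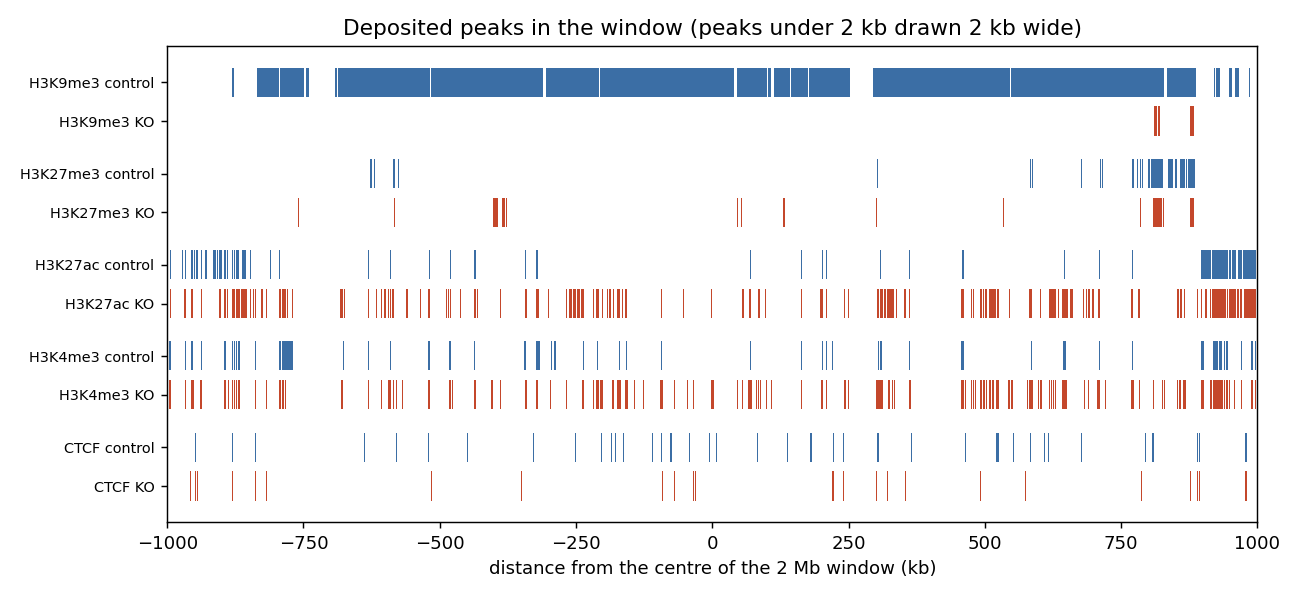
Bars mark the deposited peaks of 5 marks in control (blue) and KO (red) lists by distance from the centre of the window in kb, with peaks under 2 kb drawn 2 kb wide. H3K9me3 fills most of the window in control cells and is left only at 4 places near the right end in KO cells. In both genotypes H3K27ac and H3K4me3 peaks lie on the stretch that control H3K9me3 covered, with more of them in KO cells.

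Marks of active chromatin were more frequent in the KO lists. H3K27ac, found at active promoters and enhancers, had 63 control and 151 KO peaks, which covered 8.27% and 18.4% of the window. H3K4me3, found at active promoters, had 57 and 132 peaks over 7.20% and 13.3%. Without the outermost 100 kb on each side, H3K27ac covered 3.18% and 15.9% and H3K4me3 6.10% and 12.6%. Over all chromosomes the 2 marks covered 3.59% and 3.96%, and 3.28% and 3.77%. Without a partner in the other genotype were 102 KO and 13 control peaks of H3K27ac, and 84 KO and 6 control peaks of H3K4me3. Of the H3K4me3 peaks, 66.7% of those in control (95% Wilson interval 53.7 to 77.5) and 75% of those in KO (67.0 to 81.6) overlapped an H3K27ac peak.

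KO-only peaks of H3K27ac overlapped the control H3K9me3 peaks that had no KO partner in 91.2% of cases (93 of 102; 95% Wilson interval 84.1 to 95.3). KO peaks of H3K27ac with a control partner did so in 46.9% (33.7 to 60.6). Of the 13 control-only H3K27ac peaks, 7.69% (1.37 to 33.3) did, and of the 50 control peaks with a KO partner 52.0% (38.5 to 65.2) did. For H3K4me3 the shares were 84.5% (75.3 to 90.7) of KO-only peaks, 62.5% (48.4 to 74.8) of KO peaks with a partner and 83.3% (43.6 to 97.0; 5 of 6) of control-only peaks. For the 51 control H3K4me3 peaks with a KO partner the share was 64.7% (51.0 to 76.4). The H3K9me3 peaks without a partner cover 73.7% of the window. Intervals here cover counting error only, neighbouring peaks of 1 list are not independent, and no difference between these shares was tested.

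**Figure D4:**
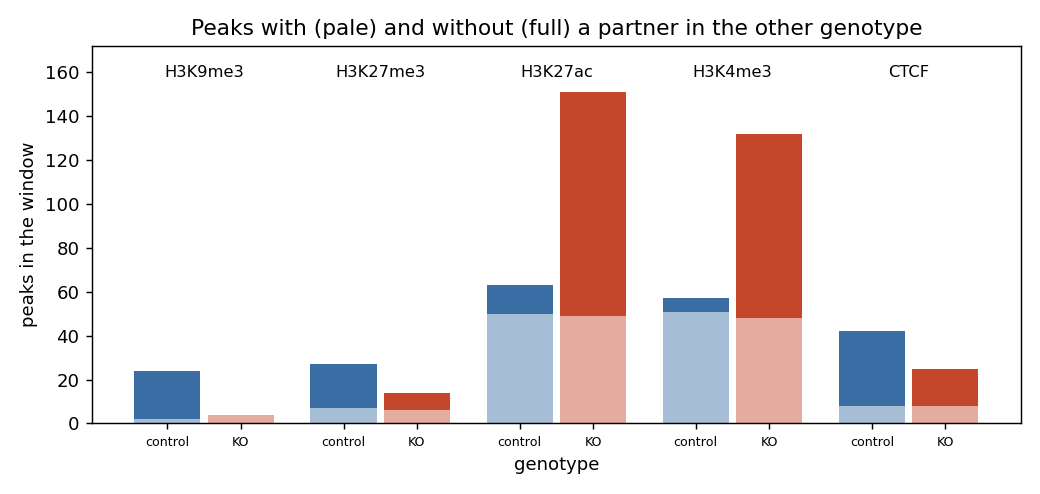
Bars give the number of peaks in the window in control (blue) and KO (red) lists for each mark, split into peaks that overlap a peak of the other genotype (pale) and peaks that do not (full colour). H3K27ac and H3K4me3 have 102 and 84 KO-only peaks, while 22 of 24 H3K9me3 and 34 of 42 CTCF control peaks have no partner.

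H3K27me3, the mark of Polycomb repression, covered little of the window, 3.91% in control and 2.64% in KO lists, with 27 and 14 peaks. A partner was found for 7 of the control and 6 of the KO peaks. In the 100 kb bin that held the remaining H3K9me3, H3K27me3 covered 54.9% in control and 25.9% in KO lists. Bins differed in direction: in the bin starting at 37100001, H3K27me3 covered 0% in control and 12.5% in KO lists. All 8 KO-only H3K27me3 peaks overlapped H3K9me3 peaks without a KO partner (95% Wilson interval 67.6 to 100). Of the 20 control-only peaks, 40% (21.9 to 61.3) did. Those H3K9me3 peaks cover 73.7% of the window, and no share was tested against that. At 19p12 H3K27me3 covered 0.435% in control and 16% in KO lists, opposite in direction to the window as a whole.

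CTCF, which binds DNA at insulators and domain borders, had 42 control and 25 KO peaks in the window, while its lists over all chromosomes held 23903 and 34474. In each list 8 peaks of the window had a partner, a share that was not computed over the whole lists. Of the 34 control-only CTCF peaks, 94.1% (95% Wilson interval 80.9 to 98.4) overlapped H3K9me3 peaks without a KO partner, and of the 17 KO-only peaks 76.5% (52.7 to 90.4) did. Of the 8 control peaks with a partner, 25.0% (7.15 to 59.1) did so. Those H3K9me3 peaks cover 73.7% of the window, near the share of the KO-only CTCF peaks.

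Compartment signal, a signed score per 100 kb bin from Hi-C whose method and orientation are not given in the sources used here, was compared in the 20 bins of the window with limma on 2 replicates per genotype. It was higher in KO cells in 18 bins and lower in 0, where 21.6% of the 26496 bins of the genome were higher and 37.3% lower (limma adjusted p under 0.05). Of the 20 bins, 18 had a negative mean in control, and all 18 had a positive mean in KO cells. Over the genome, 1556 of the 11865 bins negative in control changed from negative to positive. Counted over all bins, whatever their sign in control, this change was seen in 18 of 20 bins of the window and in 5.87% of the genome's 26496 bins. The mean over the window was -1.01 and -1.14 in the control replicates and 0.17 and 0.17 in the KO replicates. The largest difference was 1.80 (limma adjusted p 3.5e-09, SE 0.046) in the bin starting at 37300001, with -1.58 and -1.66 in control and 0.16 and 0.20 in KO replicates. In 2 bins, starting at 37400001 and 37700001, KO replicate 1 was just below 0 (-0.022 and -0.002). The first and last bins had means of 0.474 and 0.018 in control and 0.597 and 0.034 in KO, and were not called (limma adjusted p 0.096 and 0.77).

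**Figure D5:**
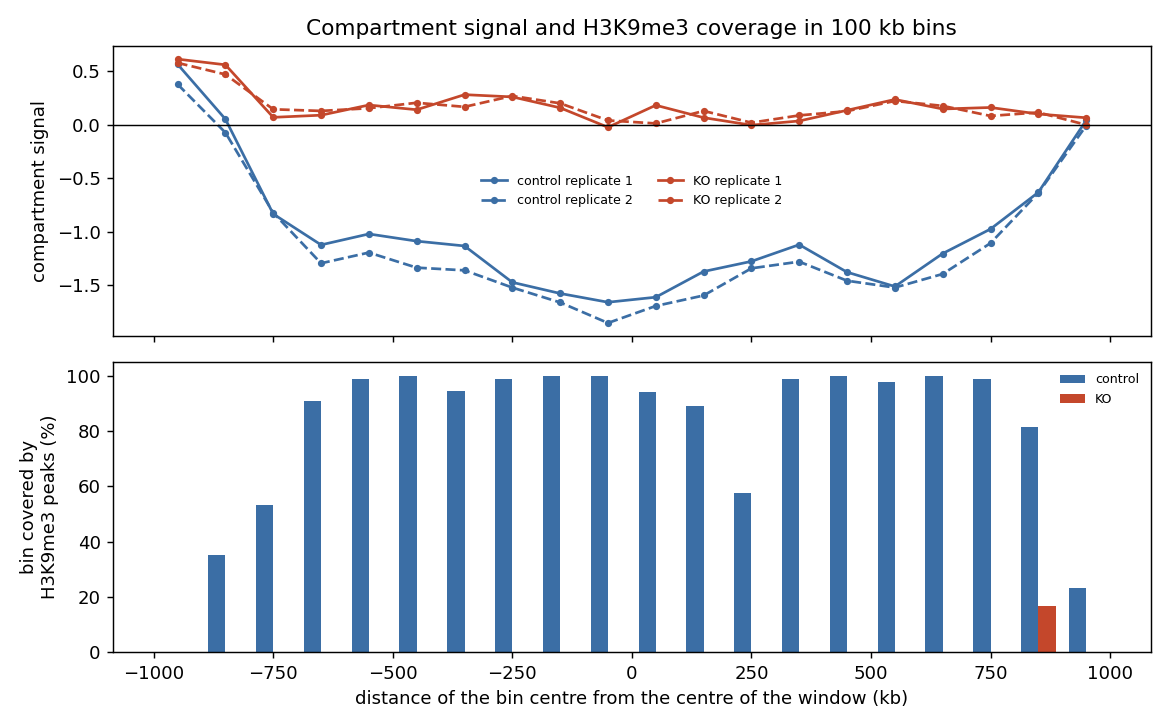
The upper panel shows the compartment signal of 2 control (blue) and 2 KO (red) Hi-C replicates in 100 kb bins by distance from the centre of the window in kb; the lower panel shows the percentage of each bin covered by H3K9me3 peaks. Control lines lie below 0 where H3K9me3 fills the bins and meet the KO lines at both ends, where it covers 0% and 23.2% of the bin.

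H3K9me3 covered over 90% of 13 bins in control cells, and only 1 bin held any in KO cells. Across the 20 bins, control H3K9me3 coverage and the change of compartment signal had a Pearson r of 0.87 and a Spearman rho of 0.64. These bins are neighbours from the same libraries and are not independent, so the values describe this window only. The bin starting at 37700001 was covered to 57.5% and had a control mean of -1.31. H3K27ac and H3K4me3 coverage was each higher in KO lists in 18 of 20 bins, a share that was not computed over the genome. H3K27ac fell from 25.1% to 10.3% in the first bin and from 83.0% to 70.5% in the last. H3K4me3 fell from 24.0% to 8.65% in the bin starting at 36700001 and from 11.3% to 9.29% in that starting at 37100001. At 19p12, 24 of 24 bins with values were higher in KO cells, but only 1 went from negative to positive, with means of -1.05 in control and -0.26 in KO cells.

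The list of topologically associating domains (TADs), which lie on a 20 kb grid, had 1 TAD of 1700 kb in control cells, chr19:36680001-38380000, over most of the window. H3K9me3 peaks covered 92.2% of it in control and 0.736% in KO lists, H3K27ac 1.81% and 14.7%, and H3K4me3 5.42% and 12.3%. Of the 6118 control TADs, 171 were at least as long. In or across the window, the control list had 4 TADs and the KO list had 8, the longest KO TAD being 560 kb. Both ends of the control TAD were also boundaries in the KO list, and 7 KO boundaries had no control partner within 1 bin. A CTCF peak lay within 20 kb of 3 of these 7 in the control list and of 3 in the KO list. The median TAD length was 300 kb in both lists.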

How the data were processed

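RNA values were deposited as whole-number counts for each gene; the libraries were made with a stranded total RNA kit, per the labels' protocols. Compartment scores were deposited as a signed score per 100 kb bin. Peaks and TADs were deposited as positions. STAR 2.6.1c, edgeR 3.30.0, Bowtie2 2.2.3, SAMtools 1.5, Picard, MACS2 and hg19 are named in the submitters' processing notes, with no role given; caller settings and pooling of libraries are not given in the sources used here. The KO H3K4me3 libraries, whose label lacks a digit, were grouped by their description. Gene symbols were matched for 93.8% of 62486 IDs, and 0 per-sample columns were left unmapped.

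Counts were fitted with edgeR 4.0.16 in R 4.3.3 by the robust quasi-likelihood test, after filterByExpr and TMM scaling and with genotype alone as term, with Benjamini-Hochberg adjustment over 17767 genes and a threshold of 0.05. Replicate libraries differed by more than sampling noise and were all kept apart. Compartments were fitted with limma 3.58.1 over 26496 bins. Peaks were matched by an overlap of at least 1 bp in Python 3.11.15 with pandas 2.3.3, and Wilson intervals were 95%. On simulated counts for 17489 genes, the RNA fit recovered 89.58% of 96 changes of 1 on the log2 scale. It recovered 100% of 100 changes of 2, with 1.587% false calls. On simulated scores for 26496 bins, the compartment fit recovered 100% of 200 shifts of 1, with 5.213% false calls. In the data 62.8% of genes were called, and 21.6% of bins were higher and 37.3% lower. The simulations changed far smaller shares, so their rates describe the simulated setting only.

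All 30 members are named; values per library are given for SETDB1, the 8 largest increases, the only decrease, ZNF850, ZNF585A, ZNF585B and members with under 10 counts in a genotype. Members and gene lists were chosen with earlier results of these data known; the list of other genes between the members, the chromosome 19 lists and the shared promoter runs were added after values or sequences were seen. Input libraries, an hg19 annotation and protein sequences were not used here, so genes were not placed in hg19 bins or peaks. Other scalings, filters, tests, a replicate block, leaving out replicates and other overlap rules were tried as alternatives. Some items are not reported here.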

Additional observations from a re-analysis of the deposited data

How the results depend on the processing

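Of 682 values recomputed under other settings, 650 stayed within their limits, 32 moved and 0 reversed. Those that moved were 21 of 91 peak values, 7 of 90 values of other gene lists and 4 of 21 compartment values. The 682 included 406 fold changes and 70 counts of members. No fold change turned or crossed the adjusted p threshold. That was the only limit set for fold changes, whatever their size, so 8.88 and 10.96 for ZNF345 passed it. Calls far past the threshold could hardly fail this limit. Members near 2-fold did cross that line, and the number changed at least 2-fold, 24, ranged from 23 to 26: the log2 fold change of ZFP14, 1.01, was 0.97 with upper quartile scaling and 0.96 without control replicate 3, and that of ZNF260, 1.00 for a fold of 1.99, was 1.03 with library size only or no expression filter. ZNF781 had a value only where the filter let it in. Of the 2 genes called lower after the cluster, 0 were left with library size only and 0 with no expression filter, and 0 to 2 when a library was left out. The mean compartment difference of 1.25 was 1.78 with columns scaled to SD 1, 1.38 in the narrower window and 1.19 to 1.31 when a replicate was left out; bins going from negative to positive ranged from 16 to 19 of 20.

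With a reciprocal overlap of 50%, the share of peaks with a partner was 56.1% of control and 24.2% of KO peaks for H3K4me3, 47.6% and 19.9% for H3K27ac, 0% and 0% for H3K9me3, and 11.1% of control H3K27me3 peaks. Among the wider 50% of each list it was 50% of control H3K27me3 and 52.2% of KO H3K4me3 peaks. In the narrower window it was 97.0% and 21.9% for H3K27ac, whose log2 ratio of covered length, 1.15, was 2.32 there.

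The numbers of the RNA libraries did not pair them (correlations of deviations 0.11, 0.064 and 0.047), nor did those of the Hi-C libraries (-0.0018). With a replicate block, 11655 genes were called against 11157, 28 members rose and 1 fell as before, and 19 bins of the window were higher against 18. Depth limits the fold of members with few control counts, and peak lists have no replicate error.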
